A study of Homo sapiens with 9 samples.

Results

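The genes described here encode the protein core of the spliceosome and the heterogeneous nuclear ribonucleoproteins (hnRNPs). They were picked by patterns in the gene symbol and number 74 of the 56541 genes in the table. The 50 spliceosome genes comprise 12 SNRP genes, 7 SNRNP genes, 7 LSM genes (LSM2 to LSM8), 9 SF3A and SF3B genes, 12 PRPF genes and 3 U2AF genes, and the other 24 are HNRNP genes. The 19 SNRP and SNRNP genes are called snRNP genes below. A filter on low counts left 71 of the 74 genes for testing in each comparison. The other 3, HNRNPCL1, HNRNPCL2 and HNRNPCL3, stood at 0 in all RNA-seq libraries, and of their RIP values only that of HNRNPCL1 in replicate 3 was above 0, with 24 counts.

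RNA was measured in MOLM-13, a human acute myeloid leukaemia cell line, in 3 groups of 3 libraries. Cells with a control hairpin (shCONTROL) and cells with a hairpin against BCLAF1 (shBCLAF1) were profiled by RNA-seq. The RIP group held RNA co-precipitated with the BCLAF1 protein (RNA immunoprecipitation) from shCONTROL cells. All 9 samples had 200 ng/µL doxycycline for 4 days and carry the same batch label. The labels do not state whether replicates were separate cultures, whether a line was 1 clone, or whether a mock precipitation was made, so p-values measure the spread between these samples and the RIP reference is total RNA. Totals ran from 25819144 to 36635268 estimated counts per library. BCLAF1 checked the labels: its level in CPM (counts scaled to library size) was 325, 328 and 312 in shCONTROL and 115, 125 and 99.9 in shBCLAF1. Of 12 myeloid markers 11 were above 3 counts in at least 1 library, CD14 being the exception. Summed, they ran from 1567 to 1595 CPM in shCONTROL, from 1502 to 1592 in shBCLAF1 and from 2008 to 2164 in RIP, and the part of this difference in the RIP results was not tested. Single markers differed in both directions after knock-down, with SPI1 at 248.7, 239.8 and 257 CPM in shCONTROL and 315, 303 and 343 in shBCLAF1, and MEIS1 at 82.2, 87.0 and 82.0 against 47.6, 45.5 and 44.6. Their part in the knock-down results was not tested. The 4 stromal markers were at 0 in every library, and of the T cell, B cell, erythroid and epithelial lists 3, 2, 3 and 2 of 4 markers were at or under 3 counts throughout.

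Introns are removed by small nuclear ribonucleoproteins (snRNPs), particles of a short RNA and proteins. The Sm proteins form a ring on the U1, U2, U4 and U5 RNAs, and LSM2 to LSM8 form a like ring on U6. SF3A and SF3B belong to the U2 snRNP that recognises the branch point, U2AF binds the pyrimidine tract and the AG at the intron's end, and several PRPF proteins build or remodel the U4/U6.U5 particle. The hnRNP proteins coat nascent transcripts and influence splice-site choice, export and stability. BCLAF1 is a nuclear protein found with splicing factors.

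Promoter sequences of the spliceosome and hnRNP genes differed in how often they held several short motifs, a description with no test. A RefSeq promoter of 300 bases (GRCh38.p14, 250 bases before to 50 after the start) was found for 64 of the 74 genes. The 21 hnRNP promoters are not those of the hnRNP genes tested. They include HNRNPCL1 and HNRNPCL2, which were not tested, and lack HNRNPA1 and HNRNPA1L3, which were. The ETS-type motif CCGGAAG, on either strand, was in 20 of 43 spliceosome promoters (46.5%) and in 3 of 21 hnRNP promoters (14.3%). It was in 20.4% of the 9944 promoters of genes tested in the knock-down and in 10.7% of all 27305 promoters. The motif CCAAT, also on either strand, was in 15 of 21 hnRNP promoters (71.4%), in 18 of 43 spliceosome promoters (41.9%) and in 37.1% of those of tested genes (35.7% of all). Neither motif contains the other, and a match is not a measured binding site. Motifs named GC box, TATA box, NRF1, YY1 and CRE were counted as well. They were in 62.8%, 2.33%, 9.30%, 9.30% and 2.33% of spliceosome promoters and in 71.4%, 14.3%, 0%, 0% and 0% of hnRNP promoters. Among promoters of genes tested in the knock-down the shares, in the same order, were 69.05%, 6.01%, 5.73%, 4.15% and 3.38%. The following 60 bases before the start, 5′ to 3′ on the strand of the gene, show where CCGGAAG or its reverse complement (in capitals) lies in genes that fell (SNRPB, SF3A2, SF3B2, SF3B6, PRPF18), rose (SNRNP27) or were not called (SNRPB2, SNRNP200, SF3A1, SF3B4, PRPF6, U2AF2) after knock-down. The motif lies within these 60 bases in 14 genes, of which 5 fell, 1 rose and 8 were not called.
SNRPB (chr20:2470790-2470849, - strand): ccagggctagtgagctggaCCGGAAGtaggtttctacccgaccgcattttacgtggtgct
SF3A2 (chr19:2236764-2236823, + strand): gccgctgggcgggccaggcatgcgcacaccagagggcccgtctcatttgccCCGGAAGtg
SF3B2 (chr11:66052304-66052363, + strand): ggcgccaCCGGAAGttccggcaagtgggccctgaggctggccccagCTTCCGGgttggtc
SF3B6 (chr2:24076327-24076386, - strand): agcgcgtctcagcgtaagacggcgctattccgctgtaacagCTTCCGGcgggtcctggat
PRPF18 (chr10:13586905-13586964, + strand): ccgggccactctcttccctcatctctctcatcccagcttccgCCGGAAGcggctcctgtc
SNRNP27 (chr2:69893896-69893955, + strand): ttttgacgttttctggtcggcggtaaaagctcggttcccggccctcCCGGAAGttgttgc
SNRPB2 (chr20:16729966-16730025, + strand): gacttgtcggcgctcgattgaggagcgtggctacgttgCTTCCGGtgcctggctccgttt
SNRNP200 (chr2:96305547-96305606, - strand): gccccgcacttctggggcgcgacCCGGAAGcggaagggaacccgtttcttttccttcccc
SF3A1 (chr22:30356895-30356954, - strand): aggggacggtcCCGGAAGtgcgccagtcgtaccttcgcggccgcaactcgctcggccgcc
SF3B4 (chr1:149927804-149927863, - strand): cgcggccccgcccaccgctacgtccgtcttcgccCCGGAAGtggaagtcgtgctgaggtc
PRPF6 (chr20:63981072-63981131, + strand): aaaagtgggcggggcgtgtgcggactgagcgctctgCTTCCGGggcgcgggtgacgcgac
U2AF2 (chr19:55654975-55655034, + strand): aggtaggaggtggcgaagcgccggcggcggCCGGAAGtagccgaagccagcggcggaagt
Most hnRNP promoters held no CCAAT, on either strand, within the 100 bases before the start. These bases of 3 hnRNP genes that did hold it follow, with CCAAT or its reverse complement in capitals.
HNRNPA0 (chr5:137754364-137754463, - strand): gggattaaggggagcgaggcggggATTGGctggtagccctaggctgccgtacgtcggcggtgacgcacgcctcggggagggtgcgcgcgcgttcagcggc
HNRNPAB (chr5:178204433-178204532, + strand): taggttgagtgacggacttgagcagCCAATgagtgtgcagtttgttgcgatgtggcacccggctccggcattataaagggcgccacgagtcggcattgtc
HNRNPC (chr14:21269443-21269542, - strand): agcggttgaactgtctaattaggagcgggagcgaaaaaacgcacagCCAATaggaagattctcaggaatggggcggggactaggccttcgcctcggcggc
Among promoters of genes that fell after knock-down, 11 of 24 (45.8%) held CCGGAAG, against 12 of 38 (31.6%) among the other tested genes of the families. In the RIP the motif was in 9 of 21 promoters of the lower genes and in 9 of 19 of the higher genes. Of the 71 genes tested 12 lie on chromosome 19 (16.9%, against 6.82% of all tested genes with a RefSeq position).

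The knock-down comparison asks how these genes change when BCLAF1 is reduced. Of the 71 genes tested 28 fell and 4 rose past the threshold (edgeR's quasi-likelihood test with Benjamini-Hochberg adjustment over the 16961 genes tested, 0.05). Among all genes tested 16.9% fell and 15.5% rose, so the share of these genes that fell (39.4%) was above that background and the share that rose (5.63%) below it. In either direction 32 were called (32.3% of all genes tested). In 40 genes every shBCLAF1 library lay below every shCONTROL library and in 8 above, where 25.1% and 24.2% of all genes did so. The changes were small, with a median log2 fold change (log2 FC) of -0.17 against 0.02 over all genes tested, and 52 of the 71 were below 0. In bulk RNA, fewer cells of a type and less RNA per cell cannot be told apart. One fit of all 9 libraries, which shares 1 estimate of spread, called 10 of these genes lower and 1 higher, where all genes gave 1318 and 1129. Without shCONTROL replicate 1, 18 were lower, and without shCONTROL replicate 3, 15.

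**Figure D1:**
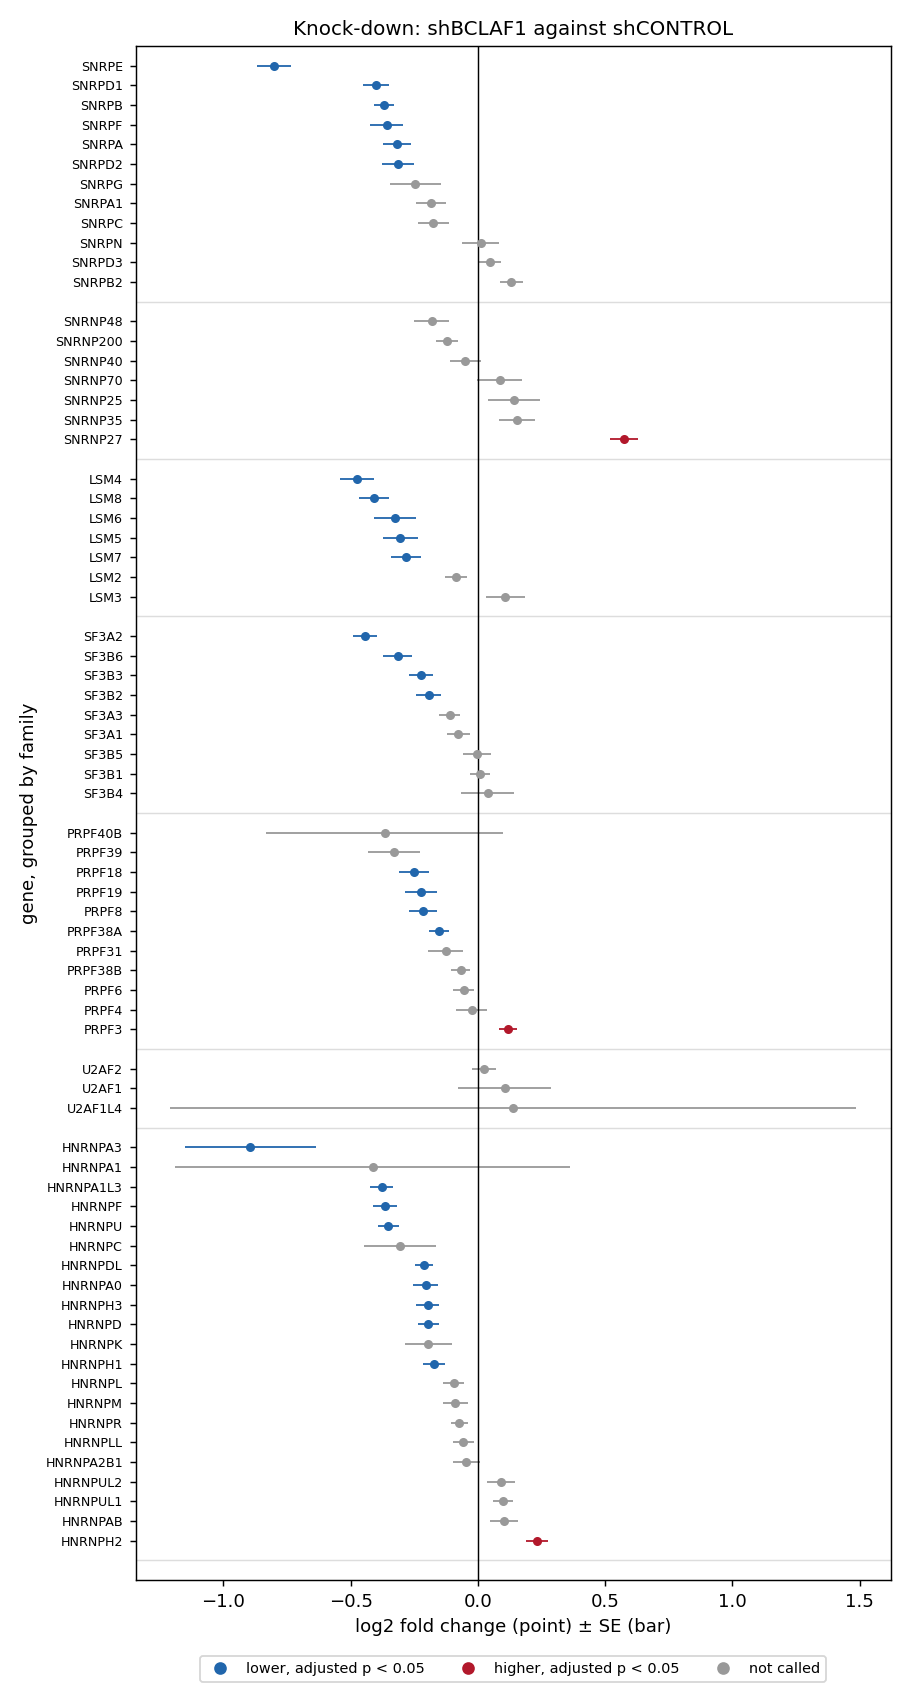
Log2 fold change of shBCLAF1 against shCONTROL for 70 of the 71 genes tested (points, with SE as bars), grouped by family. At the left of 0, 5 of 7 LSM and 6 of 12 SNRP genes are called, while SNRNP27 stands to the right at 0.57.

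The Sm genes SNRPB, SNRPD1, SNRPD2, SNRPE and SNRPF fell, and SNRPG and SNRPD3 did not pass. SNRPE (ENSG00000182004, chromosome 1, 203861599 to 203871152 in GRCh38) measured 34.3, 32.7 and 32.6 CPM in shCONTROL and 20.3, 18.9 and 17.8 in shBCLAF1. The groups were apart, and shBCLAF1 stood at 57.2% of shCONTROL (log2 FC -0.80, SE 0.07, adjusted p 0.000551). SNRPEP4, named as a copy of SNRPE and left out of the set, held 467, 469 and 521 counts in shCONTROL. In shBCLAF1 this copy held 316, 363 and 300 counts, and in RIP 79, 93 and 73. Whether reads were shared between SNRPE and its copies was not tested. SNRPB, which encodes the SmB and SmB′ proteins, measured 340, 314 and 329 CPM in shCONTROL and 253, 248 and 258 in shBCLAF1 (log2 FC -0.37, SE 0.04, adjusted p 0.0013). Again every shBCLAF1 library lay under every shCONTROL library. SNRPD1 measured 79.2, 72.2 and 79.4 CPM against 58.0, 59.4 and 57.1, a log2 FC of -0.40, which passed in every alternative but the 9-library fit (adjusted p 0.0615). SNRPF fell by 0.36 and SNRPD2 by 0.31 on the log2 scale, although the 9-library fit did not call SNRPD2 (adjusted p 0.417).

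The other Sm genes did not pass. SNRPD3 measured 140, 132 and 138 CPM in shCONTROL and 147, 137 and 138 in shBCLAF1, with groups that overlap (log2 FC 0.05, adjusted p 0.47). SNRPG had a log2 FC of -0.25 (SE 0.10, adjusted p 0.114), which passed without shCONTROL replicate 2 (-0.33, adjusted p 0.0273). That library measured 45.4 CPM, beside 55.6 and 55.7 in its replicates. SNRPN, an imprinted SmB paralogue whose locus overlaps SNURF, had a log2 FC of 0.01.

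Of the proteins special to U1 and U2, the U1 gene SNRPA fell, from 128, 125 and 125 CPM to 108, 99.6 and 94.6 (log2 FC -0.32, adjusted p 0.00637). SNRPC, another U1 gene (-0.17, adjusted p 0.0741), and the U2 genes SNRPA1 (-0.18, adjusted p 0.0551) and SNRPB2 (0.13, adjusted p 0.0744) did not pass, although their groups were apart. With total counts in place of TMM scaling SNRPB2 passed (0.18, adjusted p 0.0157). The U1 gene SNRNP70, with 155, 153 and 169 CPM against 151, 164 and 189, had overlapping groups.

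None of the 7 SNRNP genes fell, and SNRNP27, which encodes a protein of the U4/U6.U5 particle, rose. It measured 31.3, 30.4 and 28.7 CPM in shCONTROL and 45.2, 46.0 and 43.2 in shBCLAF1. All shBCLAF1 libraries lay above all shCONTROL libraries, at 149% of their mean (log2 FC 0.57, SE 0.05, adjusted p 0.00082), and the call held in all 12 alternatives. It was the largest rise of the 71 genes. SNRNP200, the U5 helicase, had a log2 FC of -0.12 (adjusted p 0.084). SNRNP25, SNRNP35 and SNRNP48, proteins of the minor U11/U12 particle, had 0.14, 0.15 and -0.18 and did not pass, nor did SNRNP40 at -0.05. At an unadjusted p under 0.05, 41 of the 71 genes would pass. The share of all genes tested at that threshold was not counted, so this number has no background.

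**Figure D2:**
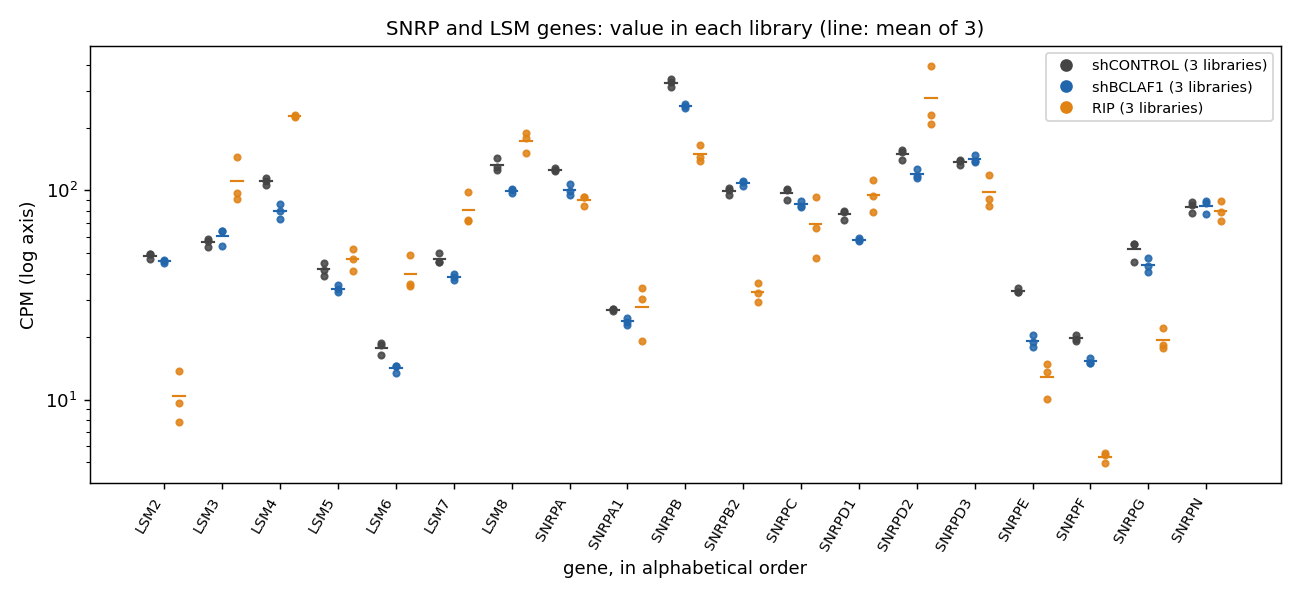
Normalised counts (CPM, log axis) of the 12 SNRP and 7 LSM genes in each of the 9 libraries, with a line at each group's mean of 3. SNRPE, SNRPB, LSM4 and LSM8 show shBCLAF1 points under all shCONTROL points, and LSM2 and SNRPF show RIP points far under both.

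In the LSM family 5 of 7 genes fell. LSM4 measured 111, 106 and 115 CPM in shCONTROL and 79.7, 73.3 and 86.0 in shBCLAF1 (log2 FC -0.47, SE 0.07, adjusted p 0.00321). LSM8, the subunit that marks the nuclear ring, measured 125, 143 and 130 against 100.4, 102 and 96.8 (log2 FC -0.41, adjusted p 0.00392). In both genes the groups were apart and the call held in all 12 alternatives. LSM5, LSM6 and LSM7 fell by 0.31, 0.32 and 0.28. The 9-library fit did not call LSM7 (adjusted p 0.178), and LSM6 lost its call in 6 of 12 alternatives (without shCONTROL replicate 2 or 3 or shBCLAF1 replicate 1 or 2, among others, with an adjusted p of up to 0.178). LSM2, with 49.7, 47.2 and 49.4 CPM against 46.6, 44.8 and 46.2, had a log2 FC of -0.08 that did not pass, and LSM3 had 0.11. Summed over the 7 genes, the family measured 451, 454 and 462 CPM in shCONTROL and 378, 370 and 370 in shBCLAF1, or 81.8% of shCONTROL.

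Of the 9 SF3 genes 4 fell. SF3A2 measured 143, 143 and 150 CPM in shCONTROL and 106, 102 and 112 in shBCLAF1, with groups apart (log2 FC -0.44, SE 0.05, adjusted p 0.00114). SF3B6, whose protein contacts the branch point, fell by 0.32, SF3B3 by 0.22 and SF3B2 by 0.19, the last with its call lost in 6 of 12 alternatives (without shCONTROL replicate 1 or 3 or shBCLAF1 replicate 1 or 2, among others, with an adjusted p of up to 0.458). SF3B1, the scaffold of the complex, measured 437, 439 and 412 CPM against 438, 434 and 420, with a log2 FC of 0.01 (SE 0.04, adjusted p 0.9). SF3A1 (-0.08), SF3A3 (-0.11), SF3B4 (0.04) and SF3B5 (-0.0024) did not pass either.

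The 12 PRPF genes split, with 4 lower and 2 higher. PRPF8, which forms the centre of the U5 particle, measured 896, 846 and 871 CPM in shCONTROL and 785, 764 and 694 in shBCLAF1 (log2 FC -0.22, SE 0.06, adjusted p 0.0289). PRPF19, a ubiquitin ligase that names its own complex, fell by 0.22, PRPF18 by 0.25 and PRPF38A by 0.15. PRPF3 rose by 0.12 on the log2 scale (adjusted p 0.0488). Each of these 5 calls was lost in 4 to 10 of its 12 alternatives. The call of PRPF3 was lost in all 6 fits with 1 library left out, with an adjusted p of up to 0.589 over its alternatives. Without shCONTROL replicate 3 or shBCLAF1 replicate 2 all 5 were lost. Without shCONTROL replicate 1 those of PRPF8, PRPF19 and PRPF38A were lost too, and without shCONTROL replicate 2 or shBCLAF1 replicate 3 that of PRPF38A. PRPF39 (-0.33, adjusted p 0.0543), PRPF40B (-0.37), PRPF31 (-0.13), PRPF38B (-0.07), PRPF6 (-0.06) and PRPF4 (-0.02) did not pass.

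No U2AF gene was called after knock-down. U2AF2, the subunit that binds the pyrimidine tract, measured 278, 256 and 282 CPM in shCONTROL and 277, 270 and 281 in shBCLAF1 (log2 FC 0.02, SE 0.05). U2AF1, which contacts the AG at the intron's end, was listed at 172, 128 and 183 counts in shCONTROL and 151, 193 and 209 in shBCLAF1. A near-identical copy of U2AF1 exists in the genome build, which leaves the source of these counts uncertain. U2AF1L4 ranged from 0 to 283 counts within shBCLAF1 (log2 FC 0.14, SE 1.35) and gives no reading.

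Among the 21 hnRNP genes tested 9 fell and 1 rose. HNRNPU (ENSG00000153187, chromosome 1, 244850297 to 244864543), a scaffold protein of chromatin-associated RNA, measured 2091, 2120 and 2155 CPM in shCONTROL and 1596, 1650 and 1731 in shBCLAF1. That put shBCLAF1 at 78.2% of shCONTROL with groups apart (log2 FC -0.35, SE 0.04, adjusted p 0.00171), but the fit of all 9 libraries gave an adjusted p of 0.145. HNRNPF, which binds G-rich stretches, measured 338, 329 and 350 CPM against 270, 267 and 250 (log2 FC -0.37, SE 0.05, adjusted p 0.00214), a call that held in all 12 alternatives. HNRNPDL, HNRNPA0, HNRNPH3, HNRNPD and HNRNPH1 fell by 0.17 to 0.21 on the log2 scale. The calls of HNRNPA0 and HNRNPD were lost without shCONTROL replicate 1 or 3, and that of HNRNPA0 also without shBCLAF1 replicate 1 or 2, with adjusted p of up to 0.24 and 0.164 over their alternatives. HNRNPH2, an X-linked paralogue of HNRNPH1, rose from 72.6, 69.1 and 74.2 CPM to 86.0, 85.3 and 81.6 (log2 FC 0.23, adjusted p 0.0102). The 9-library fit called neither HNRNPH2 (adjusted p 0.0594) nor HNRNPDL (adjusted p 0.198). HNRNPH1 went the other way, from 584, 578 and 578 CPM to 492, 541 and 508 (log2 FC -0.17, adjusted p 0.0281).

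Of the other hnRNP genes, these did not pass. HNRNPA2B1 measured 973, 970 and 1025 CPM in shCONTROL and 895, 998 and 975 in shBCLAF1, with groups that overlap (log2 FC -0.05, SE 0.05). HNRNPK, a poly(C)-binding protein, had a log2 FC of -0.19 (SE 0.09, adjusted p 0.167), which passed with the replicate number as a block (-0.20, adjusted p 0.0212). HNRNPL and HNRNPUL1 had -0.10 and 0.10. HNRNPM, HNRNPR, HNRNPLL, HNRNPAB and HNRNPUL2 lay between -0.09 and 0.10.

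Counts of 3 further hnRNP genes were uneven within groups. HNRNPA1 measured 76.2, 75.2 and 267 CPM in shCONTROL, 43.4, 211 and 58.4 in shBCLAF1 and 505, 359 and 237 in RIP. The sum over the 57 rows of HNRNPA1 and its named copies was uneven too, at 205, 209 and 394 CPM in shCONTROL and 145, 311 and 160 in shBCLAF1. HNRNPA1 was called in neither comparison (log2 FC -0.41, SE 0.78 after knock-down), while HNRNPA1L3, named as a copy of it, fell by 0.38. HNRNPA3 measured 92.0, 183 and 179 CPM in shCONTROL and 82.0, 82.7 and 78.9 in shBCLAF1, so that shCONTROL replicate 1 lay next to the shBCLAF1 libraries. Its call (log2 FC -0.89, SE 0.26, adjusted p 0.0418) was lost in 7 of 12 alternatives, 5 of them fits with 1 library left out (without shCONTROL replicate 2 or 3 or any shBCLAF1 replicate), with an adjusted p of up to 0.122. HNRNPC, at 425, 306 and 449 CPM against 304, 320 and 328, was called only without shCONTROL replicate 2 (log2 FC -0.45, adjusted p 0.0059). These genes have many near-identical copies, and how reads that match several copies were counted is not given in the sources used here.

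**Figure D3:**
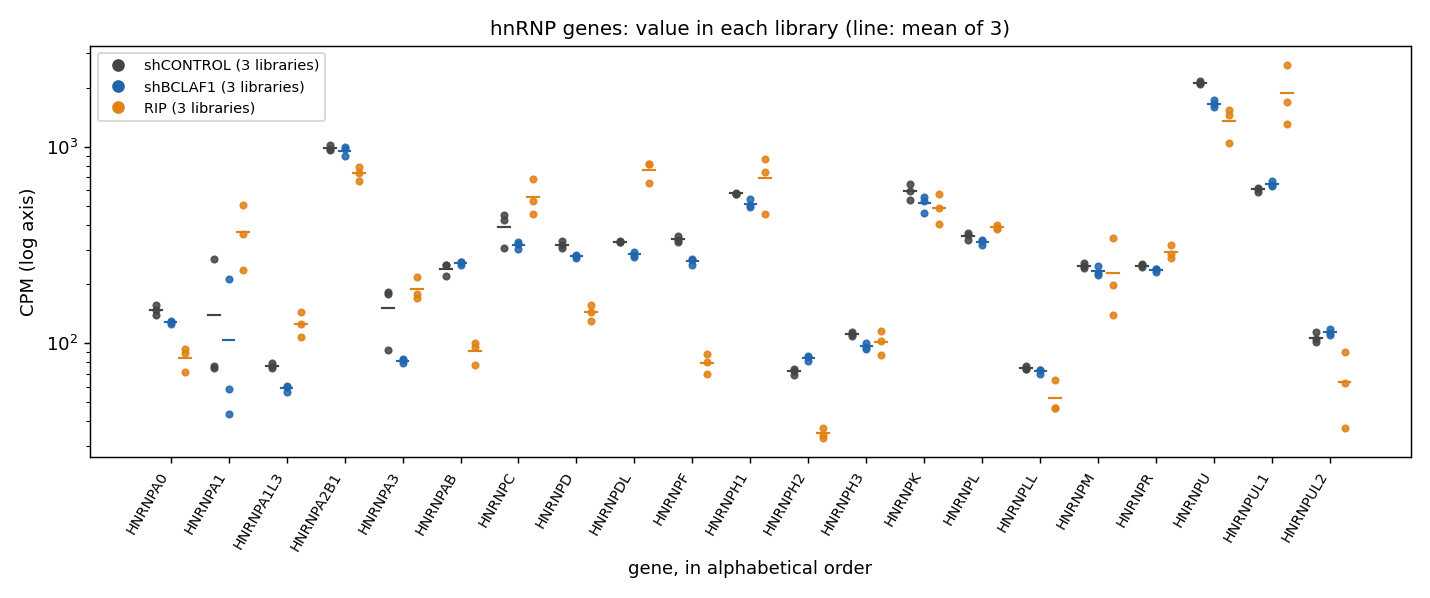
Normalised counts (CPM, log axis) of the 21 hnRNP genes above 0 in shCONTROL, in each of the 9 libraries, with a line at each group's mean of 3. HNRNPA1 spreads from 43.4 to 505 CPM over the libraries, HNRNPF stands far lower in RIP, and HNRNPUL1 and HNRNPDL stand higher in RIP.

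Medians of the snRNP and hnRNP genes lay close together after knock-down. The median log2 FC was -0.17 over the 19 snRNP genes and -0.19 over the 21 hnRNP genes, with 6 and 9 genes lower and 1 gene higher in each. Within the snRNP genes, the 12 SNRP genes had a median of -0.28 and the 7 SNRNP genes one of 0.09. Without HNRNPA1, HNRNPA1L3 and HNRNPA3 the hnRNP median was -0.13. Summed CPM of the snRNP genes was 2040, 1902 and 2001 in shCONTROL and 1835, 1776 and 1773 in shBCLAF1, or 90.6%. Summed CPM of the hnRNP genes was 8196, 8008 and 8520 in shCONTROL and 7086, 7411 and 7189 in shBCLAF1, or 87.7%. Both sums were lower in every shBCLAF1 library, while the ratio of the hnRNP to the snRNP sum overlapped, at 4.02, 4.21 and 4.26 in shCONTROL and 3.86, 4.17 and 4.05 in shBCLAF1. No test of the classes was made, since genes are not replicates.

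**Figure D4:**
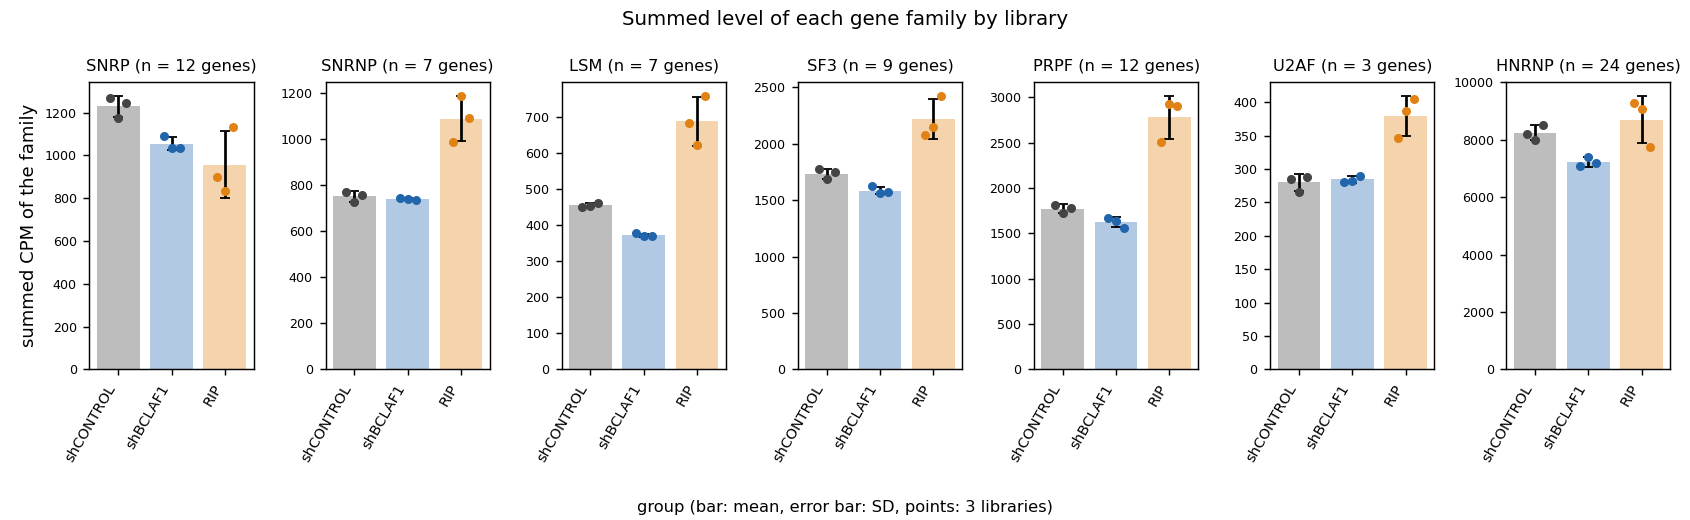
Summed CPM of each gene family by group (bars: mean, error bars: SD, points: 3 libraries). In shBCLAF1 the SNRP, LSM and HNRNP sums lie under shCONTROL, at 85.7%, 81.8% and 87.7%, and in RIP the LSM and PRPF sums lie above it, at 151% and 157%.

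The RIP comparison asks which of these RNAs were recovered with BCLAF1 beyond their level in shCONTROL RNA-seq. Of the 71 genes tested 24 were higher and 21 lower in RIP by the same test, adjusted over 16727 genes. Among all genes tested 24.6% were higher and 24.7% lower, against 33.8% and 29.6% of these genes, so the share lower lay near the background. The background was not matched to these genes in level, here or after knock-down. In either direction 45 were called (49.2% of all genes tested). A called gene that also reached a log2 FC of 1 or more in size counts as enriched or depleted, which held for 10 and 14 genes, where 11% and 13.5% of all genes were. Every RIP library lay below every shCONTROL library in 22 of the 71 genes, a smaller share than the 35.1% of all genes tested. In 30 genes every RIP library lay above, a larger share than the 31.9% of all genes tested. The median log2 FC was 0.15, against -0.05 over all genes tested. Total counts in place of TMM moved the median of all genes from -0.05 to -0.16 and left 9 enriched and 14 depleted genes. The RIP and the knock-down share the shCONTROL libraries, so their values are given side by side and not compared.

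**Figure D5:**
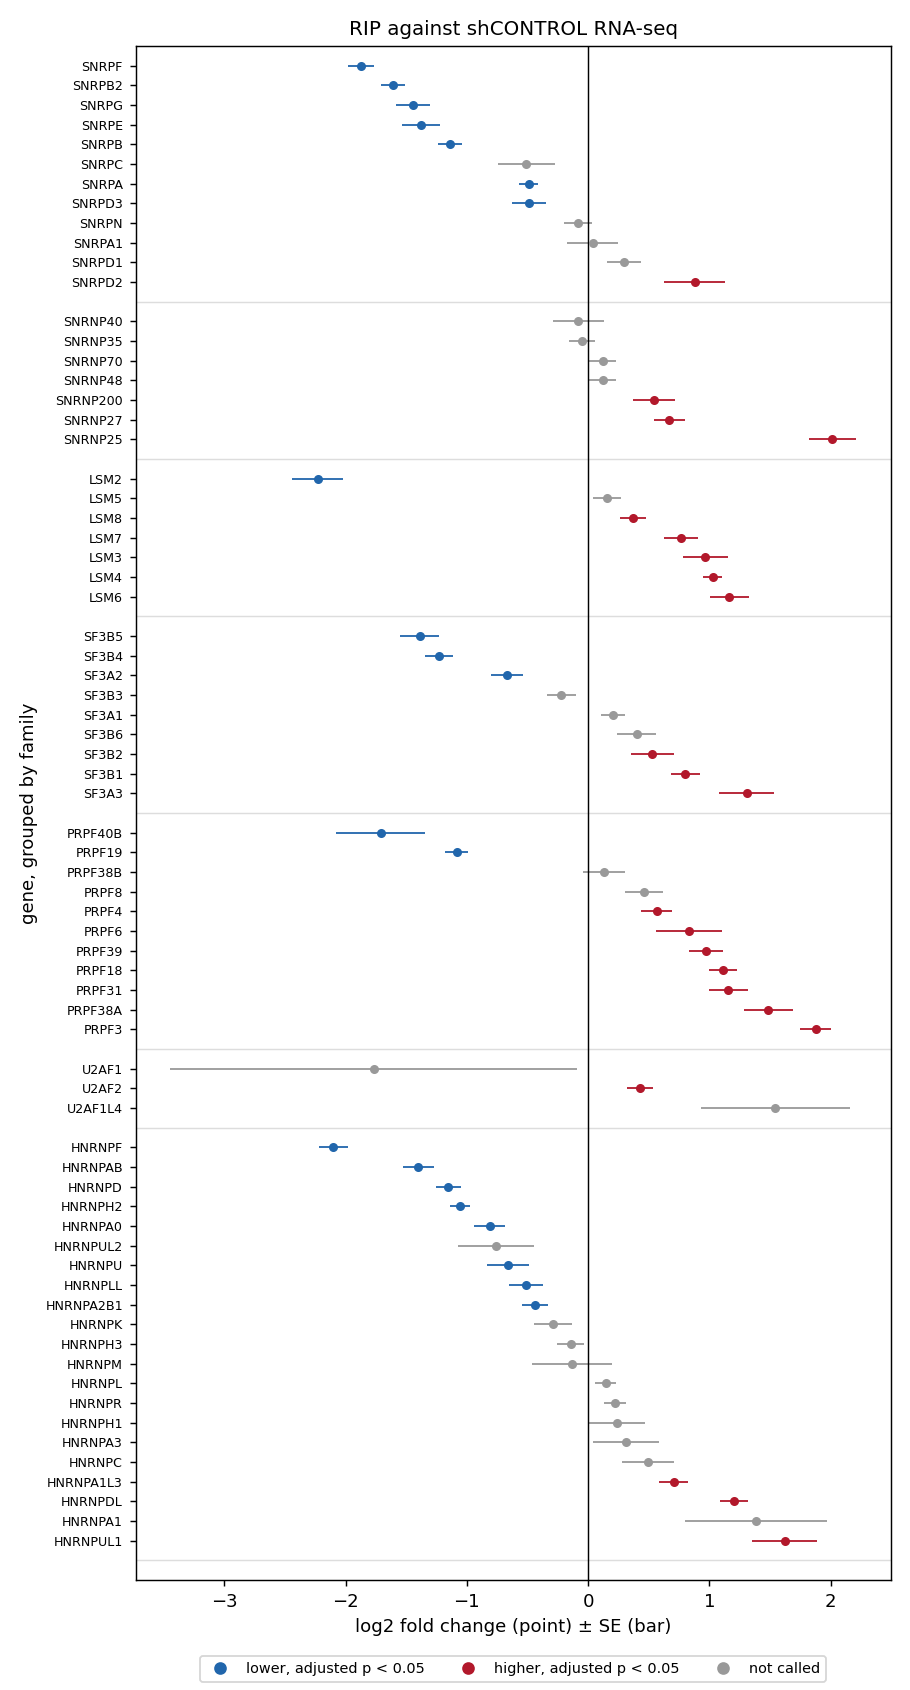
Log2 fold change of RIP against shCONTROL RNA-seq for 70 of the 71 genes tested (points, with SE as bars), grouped by family. Most SNRP genes lie to the left of 0, most PRPF and LSM genes to the right, and the hnRNP genes run from -2.10 for HNRNPF to 1.62 for HNRNPUL1.

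Of the 12 SNRP genes 7 were lower and 1 higher in RIP. SNRPF measured 5.54, 4.98 and 5.45 CPM in RIP, beside 20.3, 19.4 and 19 in shCONTROL, or 3.68-fold lower (log2 FC -1.87, SE 0.11, adjusted p 0.000224). SNRPB2 (-1.61), SNRPG (-1.44), SNRPE (-1.38) and SNRPB (-1.14) were also depleted, all with groups apart and calls in all 13 alternatives. SNRPA and SNRPD3 were lower at -0.49 each. SNRPD2 was the exception, with 230, 208 and 395 CPM in RIP against 154, 139 and 156 in shCONTROL (log2 FC 0.88, SE 0.25, adjusted p 0.0291). Leaving out shCONTROL replicate 1, 2 or 3 ended this call, with an adjusted p of up to 0.0982. SNRPA1 (0.04), SNRPC (-0.51), SNRPD1 (0.30) and SNRPN (-0.08) did not pass.

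In the U6 ring LSM2 was depleted and 5 genes were higher. LSM2 measured 9.67, 7.81 and 13.7 CPM in RIP against 49.7, 47.2 and 49.4 in shCONTROL, or 4.69-fold lower (log2 FC -2.23, SE 0.21, adjusted p 0.000583). It was the lowest fold change of the 71 genes. LSM4 measured 230, 224 and 228 CPM in RIP against 111, 106 and 115 (log2 FC 1.03, SE 0.08, adjusted p 0.000331), and LSM6 34.9, 35.8 and 49.2 against 16.3, 18.6 and 18.2 (1.17, adjusted p 0.00185). LSM3, LSM7 and LSM8 were higher at 0.97, 0.76 and 0.37, the last with its call lost in 7 of 13 alternatives (without any shCONTROL replicate or RIP replicate 1 or 3, among others, with an adjusted p of up to 0.169). LSM5 did not pass at 0.15. 

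SNRNP25 had the highest fold change of the 71 genes in RIP. It measured 160, 135 and 213 CPM there, beside 46.3, 36.0 and 42.6 in shCONTROL, or 4.07-fold higher (log2 FC 2.02, SE 0.20, adjusted p 0.000632). SNRNP27 was higher too, at 50.6, 39.7 and 54.5 CPM against 31.3, 30.4 and 28.7 (0.67, adjusted p 0.00682). SNRNP200 was higher at 0.54 (adjusted p 0.0428), a call lost in 5 of 13 alternatives (among them without shCONTROL replicate 1, 2 or 3, with an adjusted p of up to 0.129), and SNRNP35, SNRNP40, SNRNP48 and SNRNP70 lay between -0.08 and 0.12.

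The PRPF genes were mostly higher in RIP, with 8 of 12 higher and 2 lower. PRPF3, a U4/U6 protein, measured 268, 238 and 326 CPM in RIP against 74.1, 75.8 and 75.1 in shCONTROL, or 3.70-fold higher (log2 FC 1.88, SE 0.13, adjusted p 0.000285). PRPF38A (1.49), PRPF31 (1.16) and PRPF18 (1.12) were also enriched, and PRPF39, PRPF6 and PRPF4 were higher at 0.97, 0.84 and 0.57. PRPF6 measured 141, 271 and 147 CPM in RIP against 107, 102 and 103 in shCONTROL (SE 0.27, adjusted p 0.0448). The calls of PRPF39, PRPF6 and PRPF4 were not followed through the alternatives. PRPF19 was depleted, with 75.1, 86.6 and 85.4 CPM in RIP against 177, 165 and 179 (log2 FC -1.08, SE 0.10, adjusted p 0.000483). PRPF40B was depleted at -1.71, at 0.551, 0.707 and 0.555 CPM in RIP and 1.22, 2.69 and 2.45 in shCONTROL. PRPF8 had 989, 1413 and 1204 CPM in RIP and a log2 FC of 0.46 that did not pass (adjusted p 0.0531), and PRPF38B had 0.13.

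The SF3 genes divided evenly, with 3 higher and 3 lower. SF3A3 measured 302, 274 and 485 CPM in RIP against 146, 137 and 143 in shCONTROL (log2 FC 1.31, SE 0.22, adjusted p 0.00433). SF3B1 was higher at 0.80, with 782, 644 and 834 CPM against 437, 439 and 412, and SF3B2 at 0.53, with a call lost in 7 of 13 alternatives (without any shCONTROL replicate or RIP replicate 3, among others, with an adjusted p of up to 0.146). SF3B5, a gene of 690 bases, measured 24.1, 22.7 and 33.2 CPM in RIP against 70.9, 65.8 and 71.9 (log2 FC -1.39, SE 0.16, adjusted p 0.00104). SF3B4 (-1.23) was depleted as well, and SF3A2 was lower at -0.67. SF3A1, SF3B3 and SF3B6 did not pass at 0.20, -0.22 and 0.40.

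U2AF2 was higher in RIP, with 329, 381 and 393 CPM against 278, 256 and 282 (log2 FC 0.43, adjusted p 0.0187). It lost the call in 4 of 13 alternatives, among them the fits without shCONTROL replicate 1, 2 or 3 (adjusted p up to 0.0821). U2AF1 was listed at 101, 0 and 0 counts in RIP and U2AF1L4 at 321, 151 and 337, neither with a call. U2AF1 passed without RIP replicate 1 (adjusted p 0.00134), where both remaining RIP libraries stand at 0, and U2AF1L4 without shCONTROL replicate 2 (adjusted p 0.0135).

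The hnRNP genes spanned the range from depleted to enriched, with 8 lower and 3 higher in RIP. HNRNPF measured 80.1, 88.2 and 69.6 CPM in RIP against 338, 329 and 350 in shCONTROL, or 4.27-fold lower (log2 FC -2.10, SE 0.12, adjusted p 0.000224). HNRNPAB (-1.40), HNRNPD (-1.15) and HNRNPH2 (-1.06) were depleted too. HNRNPA0, HNRNPU, HNRNPLL and HNRNPA2B1 were lower at -0.81, -0.66, -0.51 and -0.44, where HNRNPU did not pass once shCONTROL replicate 1, 2 or 3 was left out (adjusted p up to 0.0691). HNRNPUL1 (ENSG00000105323, chromosome 19, 41262557 to 41307787) measured 1685, 2626 and 1316 CPM in RIP against 614, 593 and 618 in shCONTROL, or 3.08-fold higher (log2 FC 1.62, SE 0.27, adjusted p 0.00388). RIP replicate 2 was the highest, and all 3 RIP libraries lay above shCONTROL. Its paralogues HNRNPU and HNRNPUL2 (-0.76, adjusted p 0.0891) had values on the other side of 0.

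A neighbouring pair of paralogues on chromosome 4 went opposite ways in RIP. HNRNPDL (82422564 to 82430462) measured 816, 653 and 819 CPM in RIP against 329, 333 and 327 in shCONTROL (log2 FC 1.2, SE 0.12, adjusted p 0.000614). HNRNPD (82352498 to 82373991) measured 157, 144 and 130 CPM against 316, 306 and 332 (log2 FC -1.15, SE 0.10, adjusted p 0.000512). After knock-down both fell, by 0.21 and 0.19 on the log2 scale. HNRNPA1L3 was higher in RIP at 0.70, and HNRNPA1 (1.39, SE 0.59), HNRNPA3, HNRNPC, HNRNPH1, HNRNPH3, HNRNPK, HNRNPL, HNRNPM and HNRNPR were not called. Without RIP replicate 3 HNRNPK passed (-0.42, adjusted p 0.0446).

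In RIP the median log2 FC was -0.08 for the 19 snRNP genes and -0.14 for the 21 hnRNP genes. Neither was firm. Without RIP replicate 1 they were -0.019 and -0.23, the 12 SNRP genes alone had -0.50, and without HNRNPA1, HNRNPA1L3 and HNRNPA3 the hnRNP median was -0.36. Without shCONTROL replicate 2 the snRNP median was -0.13, and without shCONTROL replicate 3 it was -0.04. With all 50 spliceosome genes in place of the snRNP genes the median was 0.25, on the other side of 0, and the LSM and PRPF families had medians of 0.76 and 0.83. The ratio of the hnRNP to the snRNP sum was 4.91, 4.49 and 3.48 in RIP replicates 1, 2 and 3, a range that held all shCONTROL values. Without HNRNPUL1 it was 4.01, 3.19 and 2.89 in RIP and 3.72, 3.90 and 3.95 in shCONTROL, so that RIP replicate 1 lay above and replicates 2 and 3 below all shCONTROL libraries. The span of the gene in RefSeq followed the RIP log2 FC weakly across these genes (Spearman's rho 0.21, n = 71), as it did across all 13873 tested genes with a span (0.20). The points share libraries, and the rho carries no test.

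Other genes of the pathway were grouped in 9 lists, whose counts stand beside 16.9% lower and 15.5% higher over all genes tested in the knock-down. Of 22 genes of snRNP assembly, which load the Sm ring onto the RNA, 11 fell and 1 rose after knock-down (median log2 FC -0.23). GEMIN5, which recognises the RNA, fell from 91.4, 82.2 and 90.3 CPM to 57.4, 56.9 and 54.1 (log2 FC -0.64, adjusted p 0.000602), and GEMIN2 fell by 0.47. Of 43 other hnRNP-type RNA-binding genes tested 18 fell and 3 rose (median -0.16), with MBNL3 at -1.52 and MSI2 at -0.96. Among 13 partners of the U4/U6.U5 particle 4 fell and 2 rose (median -0.05), with SNU13 at -0.62. In the Prp19 complex 4 of 17 fell and 2 rose (median -0.04), with SYF2 at -1.01. The exon junction complex had 5 of 17 lower and 1 higher (median -0.13), and the early complex 5 of 20 lower and 2 higher (-0.04). Of 9 minor spliceosome genes 2 fell and 3 rose, with ZMAT5 at -1.30 and ZRSR2 at 0.55. Of 11 helicases 2 fell and 2 rose, and of 7 other LSM genes 1 fell and 1 rose. The shares lower were 50.0% for snRNP assembly and 41.9% for the other hnRNP-type genes, against 18.2% for the helicases, 23.5% for the Prp19 complex and 14.3% for the other LSM genes, which lie near the share of all genes.

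In RIP 24.6% of all genes tested were higher and 24.7% lower. Of 20 early complex genes 14 were higher and 1 lower (median log2 FC 0.89), the lower one being PHF5A, an SF3B subunit, at -1.52. Of 11 helicases 8 were higher (median 0.66), with DDX41 at 1.21 and DDX42 at 1.13. The Prp19 complex had 10 of 17 higher and 4 lower (median 0.70, CWC15 at 1.88), and the exon junction complex 9 and 3 of 17 (median 0.46, ALYREF at -1.42). Snurportin (SNUPN, 1.24) and WDR77 (-1.43) stood at the ends of the snRNP assembly list, which had 6 of 22 higher and 5 lower (27.3% and 22.7%, near the shares of all genes, median -0.13). The U4/U6.U5 partners had 5 of 13 higher and 4 lower (median 0.09, ZMAT2 at 1.51), and the minor spliceosome 4 and 2 of 9 (0.51). Of 43 other hnRNP-type genes 12 were higher and 10 lower (median -0.03, KHDRBS1 and PTBP3 at -1.71 each), and of 7 other LSM genes 2 were higher and 3 lower (-0.44, LSM11 at -1.73).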

How the data were processed

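RNA-seq and RIP libraries of MOLM-13 cells were stranded, depleted of ribosomal RNA and sequenced as 50-base pairs, per the labels' protocols. The values the authors deposited are expected counts for each gene, scaled neither for depth nor for length. STAR 2.7.11b, StringTie 2.2.3 and hg38 are named in the submitters' processing notes, while the annotation, the counting step and its strand setting are not given in the sources used here. The values are whole numbers and were not rounded. An entry that names no gene held 2.18% to 3.75% of the counts in 8 libraries and was left out. Antisense and read-through rows that overlap a gene (PRPF31-AS1, HNRNPUL2-BSCL2) may share its reads.

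Each comparison was fitted on its own 6 libraries with edgeR 4.0.16 in R 4.3.3: default filter on low counts, TMM scaling, a prior count of 2, quasi-likelihood F-test of the group effect without covariates, and Benjamini-Hochberg adjustment over all genes tested (threshold 0.05). A called gene in RIP counts as enriched or depleted where its log2 FC was 1 or more in size. The SE is the log2 fold change divided by the square root of F. CPM are TMM-scaled over all 9 libraries. A floor of 3 counts equalled 0.0819 to 0.116 CPM and covers counting error only. On simulated data (200 changed genes), log2 changes of 1 were recovered in 50% of genes for the knock-down and 14% for the RIP. Changes of 2 were recovered in 99% and 87%. The simulation gave every gene the same spread within a comparison, not the spread of the genes described here. These shares therefore do not say how many changes of these genes were missed. The alternatives included DESeq2 1.42.0.

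The rule leaves out symbols ending in P plus digits as pseudogenes, which read literally would also remove SNRNP25 and the other 6 SNRNP genes that it names, so these were kept. The genes and lists were chosen with earlier results of these data known. The rule for named genes took, in each comparison, up to 8 called genes per direction by size of change, then the gene with the highest mean of each family, families of up to 5 genes whole, genes called in both comparisons, and those called in neither among the 3 highest means, with up to 2 called genes from each other list. The other genes fall outside this rule and were added after their values were seen. Their calls, and those of genes from the other lists, were not followed through the alternatives. The values of 1 gene are not reported here, and it is counted in the totals but left out of the text and the plots of single genes.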

Additional observations from a re-analysis of the deposited data

Results flagged for a closer look

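Rows left out of the gene set because their symbols mark pseudogenes, antisense or read-through transcripts of these families held counts too. Of 155 such rows 44 were tested in the RIP, and 8 were higher and 8 lower there than in shCONTROL (edgeR quasi-likelihood test, adjusted p under 0.05). Both are smaller shares than the 24.6% higher and 24.7% lower over all genes. After knock-down 43 were tested, with 6 lower, also a smaller share than the 16.9% of all genes. Among the 8 higher in RIP were HNRNPA1P7, with 917, 797 and 791 counts in shCONTROL and 1082, 1068 and 1438 in RIP, and PRPF31-AS1, with 323, 279 and 332 against 404, 620 and 597. Whether their reads came from the parent genes was not tested.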

How the results depend on the processing

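The main fits did not pair libraries by replicate number, and the data do not settle whether the numbers mark pairs. Deviations of same-numbered samples from their group means correlated at 0.017, 0.074 and 0.038 between shCONTROL and shBCLAF1. Between shCONTROL and RIP they correlated at -0.020, 0.020 and 0.018. With the replicate block, 23 of these genes were lower and 3 higher after knock-down, and 19 were lower and 19 higher in RIP. Over all genes tested the block called 2538 lower and 2271 higher after knock-down, against 2859 and 2625 without it. In RIP it called 3262 lower and 3244 higher, against 4124 and 4107. In the knock-down each library correlated best with its own number, a hint from the data and not from the design. The number of genes lower after knock-down moved from 28 to 10 in the fit of all 9 libraries and ran from 15 to 27 with 1 library left out. The number higher moved from 4 to 1 in the fit of all 9 libraries and to 2 without a filter on low counts, and ran from 2 to 3 with 1 library left out. Calls over all genes tested also ran lower with 1 library left out, mostly. They were 2171 to 2730 lower, against 2859, and 1975 to 2642 higher, against 2625. The median of the snRNP genes after knock-down was -0.12 under total counts, -0.14 with all non-hnRNP genes and -0.28 with the SNRP genes alone. That of the hnRNP genes was -0.14 under total counts and -0.13 without HNRNPA1, HNRNPA1L3 and HNRNPA3. With 1 library left out these medians ran from -0.16 to -0.12 and from -0.20 to -0.13. Under total counts the median over all genes tested in the knock-down moved too, from 0.02 to 0.07. In RIP the snRNP median was 0.25 with all non-hnRNP genes and -0.50 with the SNRP genes alone. The hnRNP median was -0.36 without HNRNPA1, HNRNPA1L3 and HNRNPA3. With 1 library left out the snRNP and hnRNP medians ran from -0.13 to -0.019 and from -0.23 to -0.14. The counts of genes enriched (9 to 13) and depleted (14 to 15), lower (17 to 23) and higher (18 to 27) in RIP stayed within 1.5 times of the values reported over these fits and every other alternative run. Of the called genes named by the rule, with BCLAF1, 11 of 28 kept their call in all alternatives after knock-down and 32 of 38 in RIP. Calls of other genes were not followed gene by gene. After knock-down these include LSM5, SF3B3, SF3B6, HNRNPH1 and HNRNPH3. In RIP they include SNRPD3, LSM3, SF3B4, HNRNPLL and HNRNPA2B1. The cause of these moves was not tested, except that fits without a library hold fewer samples. The sets without SNRNP genes and without HNRNPA1, HNRNPA1L3 and HNRNPA3 were chosen after seeing the data.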
